A study of Mus musculus with 10 samples.

Results

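Transcripts of 10 early genes were compared between vehicle and GSK343 tumours: Egr1, Egr2, Egr3, Nr4a1, Klf2, Klf4, Ier2, Ier3, Btg2 and Dusp1. They were chosen by name, with earlier results of these data known. All 10 were found among the 55020 lines of the deposited table, 9 with a single line each and Egr2 with 2. For Egr2 the line with the higher mean was used. The mouse hepatoma line Hepa1-6 had been injected beneath the skin of C57/BL6 animals and left to form tumours for 4 weeks. Of these, 5 were treated with vehicle and 5 with GSK343, which blocks EZH2, the enzyme that methylates histone H3 in Polycomb silencing. The tumours titled C were taken as vehicle because only the G titles name the drug. Antibody injections, either control or directed at asialo-GM1, are also named in the labels, but not which tumours had them, so each group may be mixed in this respect. Host leukocytes, vessels and fibroblasts contribute RNA to such tumours.

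Immediate early genes are switched on within minutes of a growth factor, cytokine or stress signal, without new protein synthesis. MAP kinases act on them through the serum response factor SRF and its ternary complex partners, and cyclic AMP and calcium act through CREB. The transcripts are short-lived, and many of the products are transcription factors or negative regulators of the same signal. In tumours they are made by cancer cells and by infiltrating leukocytes and vessel cells, and handling of tissue can induce them too.

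Values are FPKM, fragments scaled for transcript length and for the total of the library, so that levels of different genes can be set beside each other. Of the early genes Ier2 had the highest level, 55.7 ± 8.39 FPKM (SD, n = 10 tumours), followed by Ier3 (51.6 ± 10.1), Egr1 (47.9 ± 10.8), Dusp1 (39.4 ± 18.3), Btg2 (34.4 ± 11.5), Klf4 (31.9 ± 8.43) and Klf2 (27.8 ± 18.5). The ranges of neighbours in this order overlapped, and their order held in 6 to 8 of 10 tumours. Nr4a1 lay lower, at 9.54 ± 2.72 FPKM, then Egr2 at 4.56 ± 1.86 and Egr3 at 0.418 ± 0.136. These last steps, from Klf2 to Nr4a1, to Egr2 and to Egr3, held in 10 of 10 tumours each.

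The DNA just before the start sites of the early genes is shown because CREB and SRF elements there are a known route of induction of such genes. RefSeq promoters (GRCm38.p6) matched 7 of the 10 genes. Windows of 250 bases before the start were searched on both strands for a CRE core, TGACG, for the CArG box bound by SRF, for an AP-1 site, TGANTCA, for a TATA box, TATAAA, and for a GC box, GGGCGG. Below, capitals mark CRE cores on either strand, in which TGACG reads CGTCA on the other strand, and, in Egr2, the CArG box. Bases that lie in an annotated exon were left off at the 3′ end for Klf2 and Dusp1. The windows are Dusp1 at chr17:26508520-26508722 (minus strand), Btg2 at chr1:134079156-134079405 (minus strand), Nr4a1 at chr15:101266596-101266845 (plus strand), Klf2 at chr8:72318812-72319032 (plus strand) and Egr2 at chr10:67537619-67537868 (plus strand). RefSeq lists 5 starts for Egr2, and the one shown was picked because it holds both elements.
Dusp1: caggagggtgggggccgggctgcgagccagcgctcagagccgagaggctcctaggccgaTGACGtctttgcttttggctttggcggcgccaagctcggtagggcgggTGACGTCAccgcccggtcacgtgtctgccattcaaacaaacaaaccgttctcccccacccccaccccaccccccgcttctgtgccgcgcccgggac
Btg2: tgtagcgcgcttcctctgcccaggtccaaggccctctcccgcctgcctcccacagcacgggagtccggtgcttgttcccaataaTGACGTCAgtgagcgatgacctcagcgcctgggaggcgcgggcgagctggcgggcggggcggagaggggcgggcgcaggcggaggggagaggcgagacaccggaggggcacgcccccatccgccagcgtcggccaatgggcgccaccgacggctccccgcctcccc
Nr4a1: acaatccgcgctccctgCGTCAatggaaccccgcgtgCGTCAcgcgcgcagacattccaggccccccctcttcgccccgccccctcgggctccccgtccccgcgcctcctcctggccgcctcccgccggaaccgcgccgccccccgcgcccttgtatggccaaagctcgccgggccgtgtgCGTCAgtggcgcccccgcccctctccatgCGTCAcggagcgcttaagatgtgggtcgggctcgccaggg
Klf2: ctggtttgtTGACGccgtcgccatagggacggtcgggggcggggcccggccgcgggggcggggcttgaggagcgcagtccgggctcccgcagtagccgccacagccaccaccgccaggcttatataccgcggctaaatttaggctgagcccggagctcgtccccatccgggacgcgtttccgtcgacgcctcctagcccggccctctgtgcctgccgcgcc
Egr2: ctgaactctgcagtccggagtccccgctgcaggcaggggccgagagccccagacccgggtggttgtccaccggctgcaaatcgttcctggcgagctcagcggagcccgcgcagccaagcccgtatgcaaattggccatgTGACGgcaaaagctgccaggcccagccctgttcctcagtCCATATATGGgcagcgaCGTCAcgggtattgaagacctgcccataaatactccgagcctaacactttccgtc

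A CRE core stood before 6 of the 7 genes with a window, against 19.8% of the 27025 genes in the table and 17.8% of its 32851 windows. Nr4a1 had 4 of them, Dusp1 3, Btg2 2, Klf2 and Klf4 1 each, and Egr2 2 in the window shown. In Dusp1 and Btg2 a CRE core on each strand overlapped to form a palindrome, which begins 143 bases before the start in Dusp1 and 166 bases before it in Btg2. Ier3 was the gene without one. The CArG box was found before 1 of the 7, Egr2, where it begins 72 bases before the start shown, and before 1.62% of all genes. A GC box stood before 7 of 7 genes (35.4% of all), for Egr2 only at other starts and not in the window shown. No AP-1 site (7.82%) or TATA box (14.3%) was found in any window of the 7 genes. These are matches of letters, and binding was not measured.

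The 9 early genes that passed the filter, a mean of at least 1 FPKM, had higher means in GSK343 than in vehicle tumours (47.6% of all lines did), but none passed the test over all lines. The median log2 difference was 0.38, with single genes from 0.17 (Ier2) to 1.04 (Klf2), against -0.01 over all 14496 lines tested. By limma on log2(FPKM + 1), 0 of 9 were called at a Benjamini-Hochberg adjusted p under 0.05, where 0.0828% of all lines were, and adjusted p ran from 0.191 to 0.483. At an unadjusted p under 0.05 there were 6 of 9, all with a higher mean in GSK343 tumours (Klf2, Dusp1, Btg2, Egr2, Nr4a1 and Ier3), against 10.7% of all lines in that direction. Adding 1 before the logarithm makes differences of genes with few FPKM look smaller than they are. In bulk tumours a change in the number of cells of a type cannot be told apart from a change of RNA per cell.

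**Figure D1:**
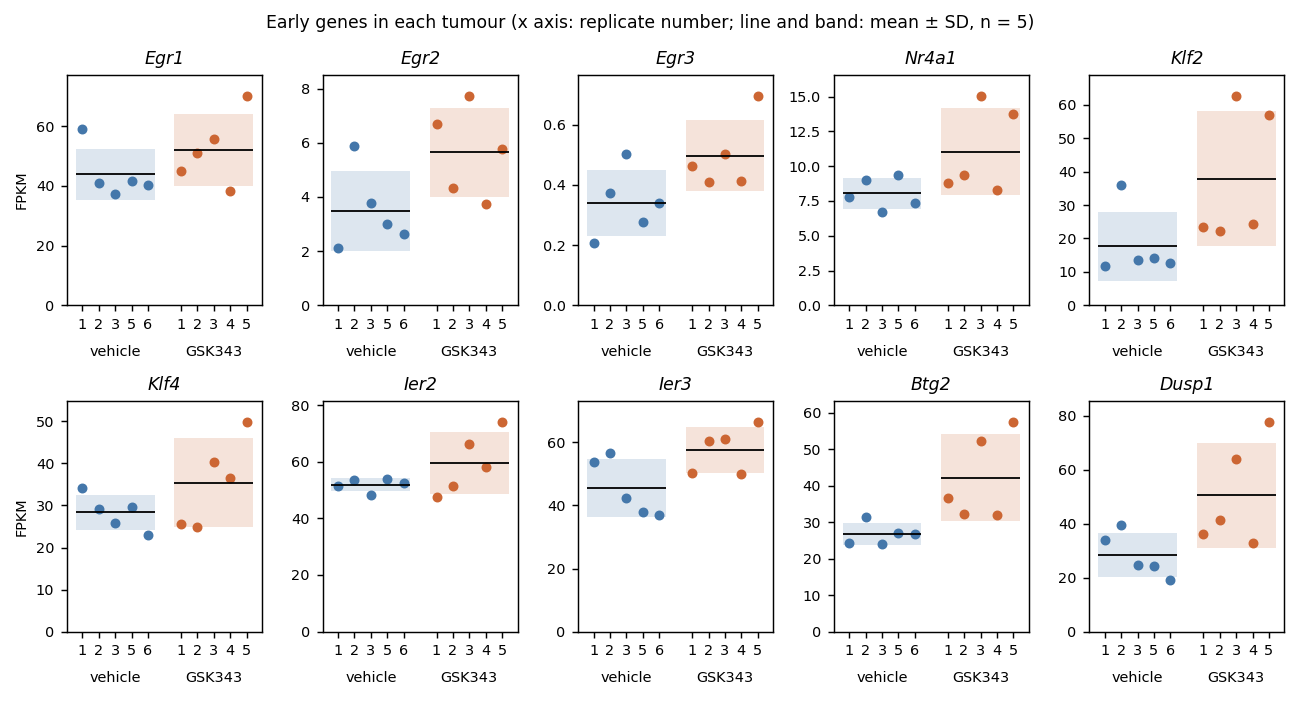
FPKM of each early gene (y axis, from 0, a scale per gene) in the 5 vehicle (blue) and 5 GSK343 (orange) tumours, by replicate number, with the group mean as a line and the SD as a band. GSK343 replicates 3 and 5 are the 2 highest tumours for 7 of the 10 genes, and only Btg2 has no overlap between the groups.

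The same GSK343 tumours were the highest in most of these genes. GSK343 replicates 3 and 5 held the 2 highest values in 7 of 10 genes (Nr4a1, Klf2, Klf4, Ier2, Ier3, Btg2 and Dusp1), which was so for 7.66% of all tested lines. GSK343 replicate 5 was highest in 7 of the 10 genes and GSK343 replicate 3 in the other 3. The lowest tumour was vehicle replicate 1, 3 or 6 in 3 genes each, and GSK343 replicate 1 for Ier2. Without GSK343 replicates 3 and 5, the median log2 difference of the 9 genes was 0.24, from 0.0064 (Ier2) to 0.51 (Klf2). None was called by limma, and 1 of 9 had an unadjusted p under 0.05, where 4.84% of all lines had one with a higher mean. These tumours also had the highest mitochondrial share of FPKM, 7.17% and 7.11% against 2.63% to 5.05% in the others, and the highest Ptprc, a leukocyte gene described further on. The part of the mitochondrial share in the differences was not tested.

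The EGR genes encode zinc finger transcription factors that bind GC-rich sites. Egr1, the most abundant of them (mm10 chromosome 18, 34859823 to 34864984), measured 59.0, 40.8, 37.3, 41.6 and 40.4 FPKM in vehicle replicates 1, 2, 3, 5 and 6, and 45.0, 50.9, 55.6, 38.4 and 70.2 FPKM in GSK343 replicates 1 to 5. The groups overlapped widely, with 1 GSK343 tumour above the highest vehicle tumour. Its log2 difference was 0.23 (SE 0.166, limma adjusted p = 0.483), with a 95% interval from -0.13 to 0.60, and without GSK343 replicate 5 it was 0.12. Without GSK343 replicates 3 and 5 the other 3 GSK343 tumours averaged 44.8 ± 6.26 FPKM, beside 43.8 ± 8.64 in vehicle.

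Egr2 (chromosome 10, 67535475 to 67542188), a factor also known from macrophages, T cells and peripheral nerve, measured 2.12, 5.88, 3.79, 2.99 and 2.63 FPKM in vehicle tumours and 6.68, 4.32, 7.74, 3.74 and 5.76 FPKM in GSK343 tumours. Vehicle replicates 2 and 3 lay within the GSK343 range, the latter just above GSK343 replicate 4, and each GSK343 tumour lay above the vehicle median. Between the groups the log2 difference was 0.59 (SE 0.230, limma adjusted p = 0.237). Its promoter holds the CArG box shown above.

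Egr3 (chromosome 14, 70077203 to 70082614), a factor with roles in lymphocytes and muscle spindles, lay below the filter. It measured 0.208, 0.372, 0.502, 0.277 and 0.341 FPKM in vehicle and 0.462, 0.411, 0.502, 0.413 and 0.697 FPKM in GSK343 tumours. The groups overlapped through vehicle replicate 3 alone. Egr3 differed by 0.16 on the log2 scale (exact two-sided permutation p = 0.0556, where the smallest possible p is 0.00794). Leaving out single tumours gave exact permutation p of 0.0556 to 0.119 in 9 of 10 cases. Without vehicle replicate 3, the only tumour that made the groups overlap, the groups are separate and the p is the smallest possible (difference 0.20, exact permutation p = 0.00794). The size of the difference depends on the pseudocount: with 0.1 in place of 1 it was 0.46 (exact permutation p = 0.0556), and the ratio of the group means was 1.46.

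Nr4a1 (chromosome 15, 101254269 to 101274795) encodes the orphan nuclear receptor NUR77, a marker of recent antigen receptor signalling in lymphocytes that is induced in many cell types. Its values were 7.79, 8.99, 6.70, 9.35 and 7.37 FPKM in vehicle tumours and 8.76, 9.35, 15.1, 8.29 and 13.7 FPKM in GSK343 tumours. GSK343 replicates 3 and 5 stood above all others, while GSK343 replicates 1, 2 and 4, at 8.80 ± 0.531 FPKM, lay in the upper part of the vehicle range or at its top. The log2 difference was 0.38 (SE 0.166, limma adjusted p = 0.268).

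Klf2 and Klf4 are Krüppel-like zinc finger factors. Klf2 (chromosome 8, 72319033 to 72321656) is known from endothelial cells under flow and from resting T cells, and had the largest difference of the 10 genes. It measured 11.8, 35.9, 13.7, 14.1 and 12.6 FPKM in vehicle tumours and 23.3, 22.3, 62.7, 24.3 and 56.9 FPKM in GSK343 tumours. Vehicle replicate 2 lay above 3 of the 5 GSK343 tumours, and the other 4 vehicle tumours lay below all of them. The means were 17.6 ± 10.3 and 37.9 ± 20.1 FPKM (SD, n = 5 each; log2 difference 1.04, SE 0.378, limma adjusted p = 0.218).

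Klf4 (chromosome 4, 55527143 to 55532466), known from epithelia, vessel walls and monocytes, measured 34.2, 29.2, 25.8, 29.7 and 23.1 FPKM in vehicle and 25.6, 24.9, 40.4, 36.4 and 49.9 FPKM in GSK343 tumours. Here GSK343 replicates 1 and 2 lay within the lower part of the vehicle range. The log2 difference was 0.27 (SE 0.188, limma adjusted p = 0.469). It was 0.14 without GSK343 replicate 5 and 0.019 without GSK343 replicates 3 and 5. Keratinocytes also express Klf4, and 8 of their markers summed to 17.2 to 139 FPKM in vehicle and 13.3 to 40.3 in GSK343 tumours. Sbsn had the highest mean of these markers in both groups, at 15.7 ± 2.81 against 12.5 ± 1.85 FPKM. None was at 0 in all tumours, but several were at 0 in 4 to 6 tumours each. The part of keratinocytes in the values of Klf4 was not tested.

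Ier2 and Ier3 are early response genes. Ier2 (chromosome 8, 84661331 to 84662852), a nuclear protein, was the steadiest of the 10 in vehicle tumours, at 51.6, 53.6, 48.2, 54.0 and 52.3 FPKM. The GSK343 tumours spread to both sides, at 47.5, 51.3, 66.3, 58.2 and 74.1 FPKM. The coefficient of variation was 4.44% in vehicle and 18.3% in GSK343 tumours, and this difference in spread was not tested. Ier2 differed by 0.17 on the log2 scale (SE 0.113, limma adjusted p = 0.442), by 0.091 without GSK343 replicate 5 and by 0.0064 without GSK343 replicates 3 and 5.

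Ier3 (chromosome 17, 35821684 to 35822923), a regulator of cell survival and of ERK signalling, measured 53.7, 56.8, 42.4, 37.9 and 37.1 FPKM in vehicle and 50.2, 60.5, 61.2, 49.8 and 66.5 FPKM in GSK343 tumours. Vehicle replicates 1 and 2 lay within the GSK343 range and the other 3 below it. Ier3 differed by 0.34 on the log2 scale (SE 0.137, limma adjusted p = 0.243).

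Btg2 (chromosome 1, 134075170 to 134079120), an antiproliferative protein that recruits the CCR4-NOT deadenylase and is also a target of p53, was the gene whose groups did not overlap. It measured 24.2, 31.5, 24.0, 27.0 and 26.8 FPKM in vehicle tumours and 36.7, 32.2, 52.3, 32.0 and 57.5 FPKM in GSK343 tumours. The lowest GSK343 tumour stood at 31.97 FPKM, close above the highest vehicle tumour at 31.47. Every GSK343 tumour lay above every vehicle tumour in 1.42% of all tested lines. The means were 26.7 ± 3.01 and 42.1 ± 11.9 FPKM (log2 difference 0.60, SE 0.169, limma adjusted p = 0.191), and without GSK343 replicates 3 and 5 the GSK343 mean was 33.6 ± 2.68 FPKM.

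Dusp1 (chromosome 17, 26505590 to 26508519) encodes a phosphatase that switches off p38, JNK and ERK kinases. Its values were 34.0, 39.4, 24.5, 24.5 and 19.2 FPKM in vehicle and 36.3, 41.3, 63.9, 33.0 and 77.7 FPKM in GSK343 tumours. Vehicle replicates 1 and 2 reached into the GSK343 range. The log2 difference was 0.78 (SE 0.261, limma adjusted p = 0.206), and GSK343 replicates 1, 2 and 4 averaged 36.9 ± 4.21 FPKM, beside 28.3 ± 8.17 in vehicle.

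**Figure D2:**
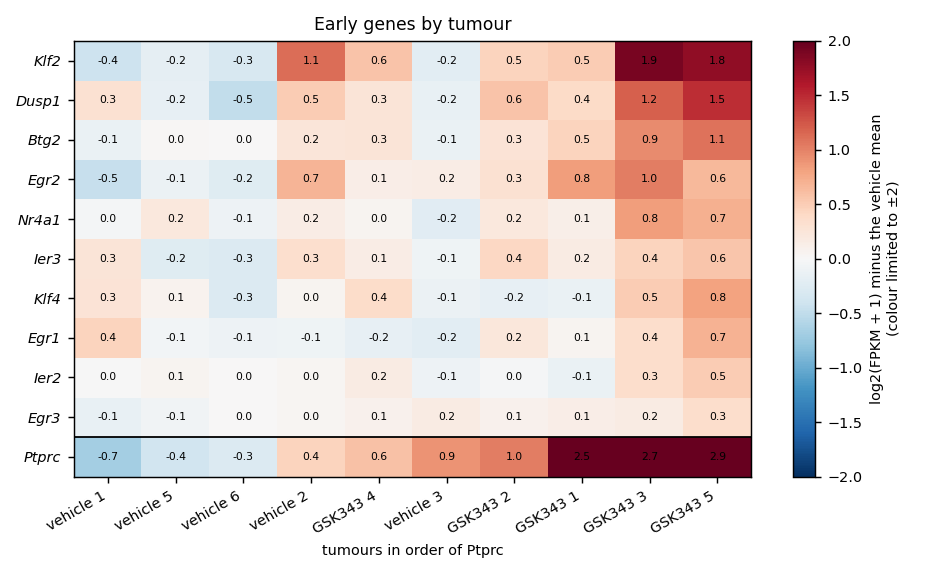
Log2(FPKM + 1) of each early gene and of Ptprc (rows) minus its vehicle mean (colour and number) in the 10 tumours, ordered from left to right by Ptprc. The 2 rightmost tumours, GSK343 replicates 5 and 3, are higher than the vehicle mean in each row, while GSK343 replicate 1, with Ptprc nearly as high, is near the vehicle mean for Klf4, Ier2 and Egr1.

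Leukocyte content differed between the tumours and was read from Ptprc, which encodes CD45, the phosphatase on the surface of all nucleated blood cells. Ptprc measured 1.74, 4.99, 7.22, 2.36 and 2.63 FPKM in vehicle tumours and 23.2, 7.97, 27.5, 5.60 and 31.0 FPKM in GSK343 tumours (log2 difference 1.93, SE 0.482, limma adjusted p = 0.191). GSK343 replicates 1, 3 and 5 stood apart at the top by 1.43 on the log2 scale, less than the 1.71 that the other 7 tumours spanned. Of the 12 pan-leukocyte markers, all detected, 11 had a higher mean in GSK343 tumours, and 9 of them at an unadjusted p under 0.05. Over all lines these shares were 47.6% and 10.7%. Their summed level was 346 to 916 FPKM in vehicle and 641 to 1077 FPKM in GSK343 tumours. Vehicle replicate 2, at 916 FPKM, exceeded GSK343 replicates 1, 2 and 4 (801, 652 and 641 FPKM) in this sum, although its Ptprc was lower than theirs.

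Across the 10 tumours, 10 of 10 early genes had a positive correlation with Ptprc on the log2(FPKM + 1) scale. In the limma fit on Ptprc alone 4 of the 9 tested genes were called, all with a positive slope, where 9.96% of all 14495 lines were called in that direction and 17% in either. An unadjusted p under 0.05 was reached by 6 of 9, against 15.8% of all lines with a positive slope. The slope is the log2 change of the gene for each log2 unit of Ptprc. It was 0.33 for Egr2 (limma adjusted p = 0.00585), 0.28 for Btg2 (adjusted p = 0.00590), 0.52 for Klf2 (adjusted p = 0.0151) and 0.36 for Dusp1 (adjusted p = 0.0251). The other slopes ran from 0.08 (Ier2) to 0.18 (Nr4a1, limma adjusted p = 0.0583). Klf2 and Dusp1 lost the call without GSK343 replicate 3 (adjusted p = 0.0640 and 0.0875) and without GSK343 replicate 5 (0.0748 and 0.128). Dusp1 also lost it without vehicle replicate 5 (0.0590) or vehicle replicate 6 (0.0579). Nr4a1 was called without vehicle replicate 3 (0.0443) and without GSK343 replicate 1 (0.0282), and Ier2 without GSK343 replicate 1 (0.0499). The number of early genes called was 2 without GSK343 replicate 3 or 5, 6 without GSK343 replicate 1, and 3 without vehicle replicate 5 or 6. Without GSK343 replicates 3 and 5 together limma called 0 of the 9 early genes and no line of the table, while 2 of the 9 had an unadjusted p under 0.05, against 11.4% of all lines with a positive slope.

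The genes differed in how far this relation rested on GSK343 replicates 3 and 5, which were also the tumours farthest from the median of Ptprc. The relations of all 10 genes were computed. Egr2 had r = 0.88 and rho = 0.81 over the 10 tumours (permutation p = 0.00112 and 0.00733), and r = 0.85 without these 2 tumours. Egr3 had r = 0.88 and rho = 0.90 (permutation p = 0.000220 and 0.000750), and r = 0.82 without them. Btg2 had r = 0.88 and rho = 0.81 (permutation p = 0.000530 and 0.00717), and r = 0.73 without them. Over the remaining 8 tumours rho was 0.83 for Egr2, 0.88 for Egr3 and 0.62 for Btg2.

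Klf2 had r = 0.80 and rho = 0.73 (permutation p = 0.00700 and 0.0204), which fell to r = 0.53 over the 8 tumours. For Dusp1 the values were r = 0.77 and rho = 0.73 (permutation p = 0.00874 and 0.0200), and r = 0.43 over the 8. For Nr4a1, r was 0.71 and rho 0.56 (permutation p = 0.0225 and 0.0977), and r was 0.17 over the 8, so that its relation rested on GSK343 replicates 3 and 5. Ier3 had r = 0.62 and rho = 0.65 (permutation p = 0.0559 and 0.0481), and r = 0.33 over the 8.

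Egr1, Klf4 and Ier2 had the weakest relations, r = 0.46, 0.45 and 0.52 with rho = 0.32, 0.27 and 0.20 (permutation p of r = 0.182, 0.186 and 0.122; of rho = 0.369, 0.447 and 0.586). Without the 2 tumours their r turned negative, to -0.17, -0.35 and -0.52. Among the 7 tumours below the gap in Ptprc, r was positive for 7 of the 10 genes and negative for the same 3.

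**Figure D3:**
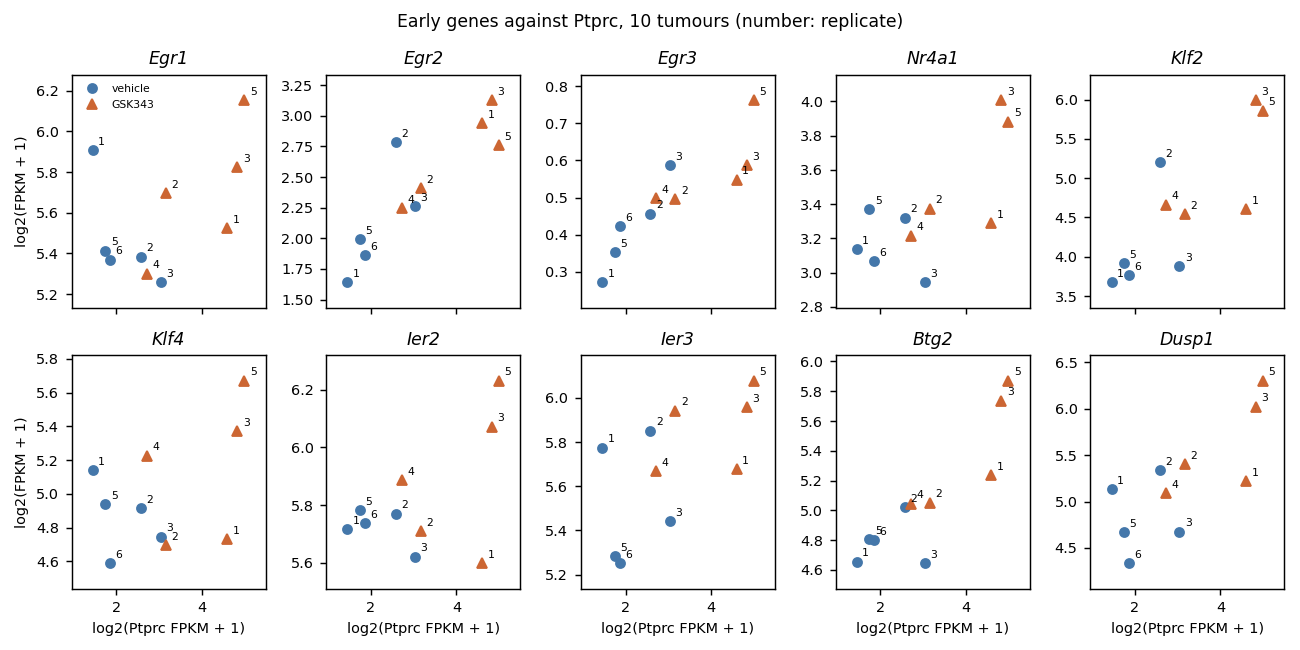
Log2(FPKM + 1) of each early gene (y axis, a scale per gene) against log2(FPKM + 1) of Ptprc (x axis) in the 5 vehicle (circles) and 5 GSK343 (triangles) tumours, numbered by replicate. Egr2 and Egr3 are higher along the range of Ptprc (r = 0.88 each). Klf4 and Ier2 are highest in GSK343 replicates 3 and 5. Egr1 is highest in GSK343 replicate 5, with GSK343 replicate 3 below vehicle replicate 1. In GSK343 replicate 1, Egr1 and Klf4 lie within the vehicle range and Ier2 below it.

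Ptprc and the early genes did not go together in every tumour. GSK343 replicates 1, 3 and 5 had Ptprc of 23.2, 27.5 and 31.0 FPKM, but Klf2 of 23.3, 62.7 and 56.9 FPKM and Dusp1 of 36.3, 63.9 and 77.7 FPKM. Vehicle replicate 2 had less Ptprc than vehicle replicate 3, 4.99 against 7.22 FPKM, but more Klf2, 35.9 against 13.7 FPKM, and more Egr2, 5.88 against 3.79 FPKM.

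With Ptprc as a covariate beside the group, the group differences of the early genes were smaller and none was called, where 0.0069% of all lines were. The differences ran from -0.13 (Egr2) to 0.23 (Dusp1) with a median of 0.10, 8 of 9 were above 0 (52.5% of all lines were), and none reached an unadjusted p under 0.05, as 3.29% of all lines did with a higher and 1.11% with a lower value in GSK343 tumours. For Klf2 the difference was 0.10 with a 95% interval from -1.01 to 1.21, which still holds the 1.04 found without the covariate. For Dusp1 it was 0.23 (-0.61 to 1.07), which also holds its value without the covariate. For Egr2 the difference was -0.13 with an interval from -0.67 to 0.41, beside the 0.59 found without the covariate. For Btg2 it was 0.14 with an interval from -0.321 to 0.599, beside the 0.602 found without it. For Klf2, Dusp1, Egr2 and Btg2 the intervals of both fits overlapped. Both fits use the same tumours and each value has its own error, so whether the covariate changed a difference was not tested. Ptprc itself had a higher mean in GSK343 tumours, so that treatment and leukocyte content can be told apart only in part. Without vehicle replicate 3, 1 of 9 differences was above 0, with a median of -0.12. Without GSK343 replicate 4, 5 of 9 were above 0 (median 0.17). Within the groups the slope on Ptprc was above 0 for 9 of 9 genes. The unadjusted p was under 0.05 for 3 of them, Egr2, Btg2 and Klf2, against 10.3% of all lines in that direction, and none was called (smallest limma adjusted p = 0.0885, Egr2), as no line of the table was.

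**Figure D4:**
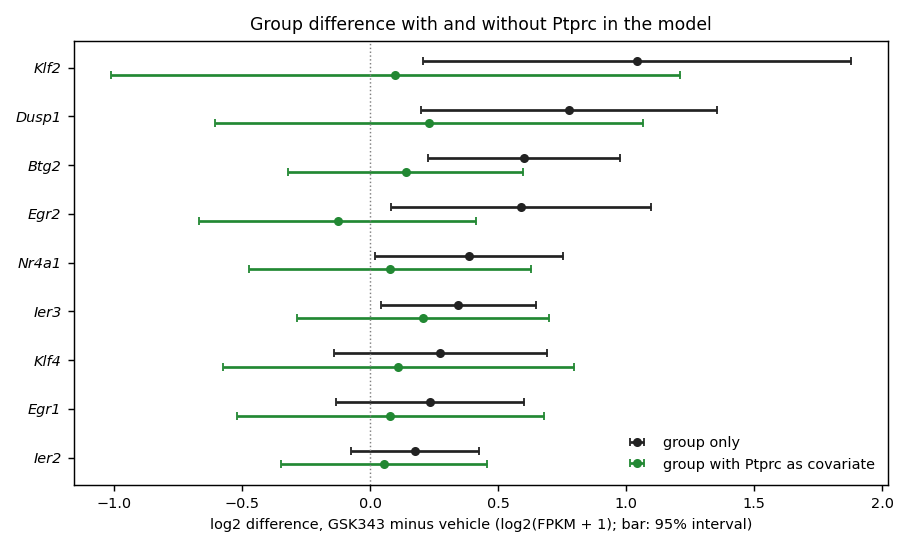
Log2 difference between GSK343 and vehicle tumours (x axis, log2(FPKM + 1)) for the 9 early genes tested, with its 95% interval, from the fit on the group only (black) and from the fit with Ptprc as a covariate (green). With the covariate each value lies nearer to 0 and each interval includes 0.

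Related genes were counted in lists, and none of their members passed the limma test over all lines. Of 36 tested genes of the AP-1 family and other early genes, 17 had an unadjusted p under 0.05 with a higher mean in GSK343 tumours and 2 with a lower one. The shares over all lines were 10.7% and 6.86%, and the median log2 difference of the 36 genes was 0.41. The 3 genes with the smallest p were Cyr61, Fosl1 and Pim1. Higher in mean were Cyr61, a matricellular protein induced by SRF and YAP, at 45.1 ± 10.3 against 78.0 ± 16.3 FPKM (limma adjusted p = 0.189), and Pim1, a kinase induced by cytokines, at 25.6 ± 4.96 against 37.9 ± 6.15 FPKM. Fosl1, the FOS relative that encodes FRA1, was lower in mean, at 26.5 ± 0.928 against 21.1 ± 2.47 FPKM (limma adjusted p = 0.191). The 2 tumours that were highest for the early genes were the highest for Fos as well, at 112 and 137 FPKM in GSK343 replicates 3 and 5 against 19.8 to 66.0 FPKM in the other 8.

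Of 21 tested paralogs in the EGR, NR4A, KLF, IER, BTG and DUSP families, 2 had an unadjusted p under 0.05 with a higher mean and 5 with a lower one, and the median log2 difference was -0.06. Over all lines these shares were 10.7% and 6.86%. The higher ones were Btg1, named after its value was seen, and Nr4a2, a second orphan receptor of the NUR77 family. Nr4a2 measured 0.941 ± 0.181 against 1.38 ± 0.244 FPKM and passed the filter only through the GSK343 tumours, so no test of it is given. Without Nr4a2, Btg1 alone is left of the higher ones. Ier5l, at 24.4 ± 1.82 against 19.4 ± 3.01 FPKM (limma adjusted p = 0.201), and Btg3, a BTG antiproliferative protein, at 53.8 ± 3.29 against 46.6 ± 3.64 FPKM (limma adjusted p = 0.213), were lower in mean.

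**Figure D5:**
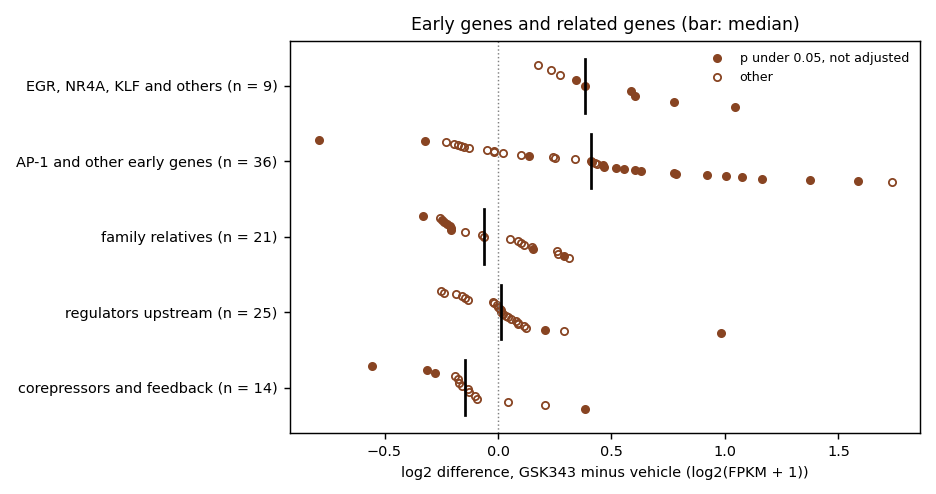
Log2 difference between GSK343 and vehicle tumours (x axis) for each tested gene of 5 lists, with the median as a bar and genes at an unadjusted p under 0.05 filled. The medians of the 10 genes (9 tested) and of the AP-1 and other early genes lie near 0.4, and those of the paralogs, of the upstream regulators and of the corepressors and feedback genes lie between -0.15 and 0.01.

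The kinases and factors upstream, 25 tested, had a median log2 difference of 0.01. Of these, 2 had an unadjusted p under 0.05, both with a higher mean, a share below the 10.7% of all lines. Crem, which encodes CREB-family activators and the inducible repressor ICER, measured 6.78 ± 3.16 against 13.5 ± 3.16 FPKM (limma adjusted p = 0.192). Rps6ka1, a kinase downstream of ERK, measured 12.1 ± 0.876 against 14.1 ± 1.24 FPKM, and the ternary complex factor Elk4 34.0 ± 4.33 against 28.8 ± 4.09 FPKM. Srf itself measured 7.36 to 10.3 FPKM in vehicle and 9.55 to 10.5 FPKM in GSK343 tumours.

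Corepressors of the EGR factors and feedback genes of the ERK pathway, 14 tested, had a median of -0.15, with 1 higher and 3 lower at an unadjusted p under 0.05. The shares of all lines were 10.7% and 6.86%. Spry4, an inhibitor of receptor tyrosine kinase signalling, measured 9.09 ± 2.76 against 5.76 ± 1.23 FPKM (limma adjusted p = 0.203). Nab2, a corepressor that EGR factors both induce and bind, measured 25.4 ± 2.97 against 20.3 ± 3.09 FPKM (limma adjusted p = 0.218), and Etv4, an ERK-induced ETS factor, 44.9 ± 2.12 against 37.3 ± 6.80 FPKM.

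Stress chaperones and other cell types were read beside these genes, and their part in the differences was not tested. Hspa1a, a heat-inducible HSP70 gene, measured 1.15, 41.9, 6.06, 1.22 and 1.97 FPKM in vehicle and 32.6, 29.8, 91.8, 14.3 and 38.7 FPKM in GSK343 tumours, so that vehicle replicate 2, the vehicle tumour with the most Klf2, also had the most Hspa1a of its group. Its reads can be shared with its near-identical copy Hspa1b. Of 8 chaperones tested, 4 had an unadjusted p under 0.05, all with a higher mean, against 10.7% of all lines in that direction. The 12 macrophage markers summed to 462 to 1846 FPKM in vehicle and 1025 to 2098 FPKM in GSK343 tumours. The 10 T cell markers summed to 128 to 270 and 199 to 372 FPKM. Thy1, at 79.2 ± 11.9 against 108 ± 12.6 FPKM, weighs most in the T cell sum and is also counted as a fibroblast marker. The 10 skeletal muscle markers summed to 14.5 to 127 and 77.4 to 516 FPKM. Means were higher in GSK343 tumours for 10 of 11 tested macrophage, 10 of 10 T cell and 10 of 10 muscle markers. At an unadjusted p under 0.05 with a higher mean there were 9, 4 and 9 of them. Over all lines these shares were 47.6% and 10.7%. The 10 fibroblast markers summed to 1587 to 2005 and 1542 to 2348 FPKM. Dcn, at 1169 ± 112 against 1082 ± 108 FPKM, weighs most in the fibroblast sum and was lower in mean. Of these 10 markers, 9 had a higher mean in GSK343 tumours (47.6% of all lines did). An unadjusted p under 0.05 was reached by 7 of them, against 10.7% of all lines in that direction. The 13 endothelial markers, relevant to Klf2, summed to 101 to 131 FPKM in vehicle and 105 to 135 FPKM in GSK343 tumours. Esam (42.4 ± 2.14 against 37.8 ± 3.16 FPKM) and Egfl7 (20.1 ± 1.64 against 18.8 ± 2.87 FPKM), both lower in mean, weigh most in this sum. Of the 11 endothelial markers tested, 8 had a higher mean, counting Thbd, which passed the filter only through the GSK343 tumours. At an unadjusted p under 0.05 Eng was higher (6.73 ± 2.25 against 9.82 ± 2.12 FPKM) and Esam lower, beside 10.7% and 6.86% of all lines. The 8 hepatoma markers were all detected and summed to 6650 to 9579 FPKM in vehicle and 6839 to 8113 FPKM in GSK343 tumours. Of them 7 had a lower mean in GSK343 tumours, 2 at an unadjusted p under 0.05, against 6.86% of all lines in that direction. Those 2 were Apoa1, at 79.7 ± 34.7 against 40.0 ± 16.1 FPKM, and Ttr, at 74.6 ± 25.7 against 41.3 ± 15.9 FPKM (limma adjusted p = 0.202 and 0.215).

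For each early gene the line most alike over the 10 tumours was looked up among 11591 tested lines that are not predicted genes, clones or mitochondrial, by Pearson r of log2(FPKM + 1), as a description. Nr4a1 was most like Cygb, a globin of fibroblast-like cells (r = 0.99). Klf2 was most like the AP-1 subunit Jun, Btg2 like Ccdc71l, and Egr2 like the adhesion molecule Vcam1 (r = 0.98 each). Dusp1 was most like Chchd5 (0.97), Egr3 like Filip1l (0.96), Ier3 like the neutrophil chemokine Cxcl2 (0.95), and Ier2 like Acyp2 (0.94). Chchd5, at 0.572 to 1.46 FPKM in vehicle and 0.920 to 2.77 in GSK343 tumours, passed the filter only through the GSK343 tumours. Egr1 and Klf4 had the least close partners, Styk1 (0.91) and Rtfdc1 (0.90). For comparison, the r exceeded by 5% of these lines was 0.86 for Klf2 and 0.53 for Egr1.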

How the data were processed

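RNA of 10 tumours was read after poly-A selection. The submitters' processing notes name StringTie 1.3.3b, HISAT2 2.1.0, Trimmomatic 0.33 and mm10; no source used here gives options, annotation release or strandedness. The authors' deposited table, made from aligned reads with the tools in those notes, was read as FPKM. It names no unit, and its values are decimals that sum to 574547 to 623397 per tumour. Counts and depth are unknown, so no counting interval can be given. There were 10 columns with no name and no values. No gene overlapped the 10 early genes in GENCODE M21.

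log2(FPKM + 1) was fitted with limma 3.58.1 (R 4.3.3, intensity trend) on 14496 lines averaging 1 FPKM or more, with the group, with Ptprc or with both, two-sided, at a Benjamini-Hochberg adjusted p under 0.05 over all lines. In data simulated for the group comparison (14496 lines, 100 of them changed at each fold), recovery was 88% at 2-fold and 97% at 4-fold. The changed lines were drawn from those with a mean log2(FPKM + 1) above 3, which leaves out low lines. These rates describe the simulated lines and give no rate for the early genes. Klf2, at a fitted 2.06-fold (SE 0.378 on the log2 scale), was not called (limma adjusted p = 0.218). Correlations used 100000 permutations; adjusted values over all lines come from the limma slopes. Genes outside the 10 were named as up to 3 with the smallest p of a list, the most alike line, and others chosen after their values were seen. The latter were Fos, Srf, Btg1, Dcn, Egfl7 and Thbd. The genes and lists were chosen with earlier results of these data known. Alternatives covered the filter, pseudocount, scaling, variance model, weights, leukocyte measure, replicate block and each tumour left out. The series' design calls the tumours biological replicates. Plots used matplotlib 3.10.9.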

Additional observations from a re-analysis of the deposited data

Results flagged for a closer look

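Of 22 groups of 5 tumours, the 10 early genes and Ptprc in vehicle and in GSK343, 2 held a single value far from the others. Chance gives such a value in about 5% of groups. Egr1 was 59.0 FPKM in vehicle replicate 1, above 41.6 FPKM, the next highest vehicle tumour. Klf2 was 35.9 FPKM in vehicle replicate 2, above 14.1 FPKM, the next highest vehicle tumour. Without vehicle replicate 2 the log2 difference of Klf2 was 1.32 (limma adjusted p = 0.0632), and without vehicle replicate 1 that of Egr1 was 0.34 (limma adjusted p = 0.360).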

How the results depend on the processing

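No early gene was called between the groups under any of the 21 alternatives, and each of the 9 tested kept a positive difference in every alternative that tested it (Egr2 falls below a mean of 5 FPKM). The calls over all lines, 12 in the fit reported, numbered 6 without a filter, 3 at a mean of at least 5 FPKM, 7 with median-of-ratios scaling, 7 with quantile normalization, 2 with the pan-leukocyte covariate, 4 without GSK343 replicates 3 and 5, and 3 to 96 with single tumours left out. With the replicate number as a block 2 lines and 0 early genes were called. Same-numbered tumours correlated by -0.33 to 0.03 in their deviations from the group means. These values show no likeness by number, but they cannot tell whether such tumours shared a day or batch.

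The early genes called on Ptprc, 4 in the fit reported, numbered 2 to 6 with single tumours left out and 0 without GSK343 replicates 3 and 5, when the slopes of Egr1 (-0.036), Klf4 (-0.077) and Ier2 (-0.047) turned negative. With Ptprc as covariate 0 were called in all 17 alternatives. There the signs were unstable when single tumours were left out: Egr1 ran from -0.13 to 0.44, Egr2 from -0.26 to 0.10, Nr4a1 from -0.19 to 0.23, Klf2 from -0.38 to 0.50, Klf4 from -0.14 to 0.38, Ier2 from -0.063 to 0.15, Btg2 from -0.12 to 0.23 and Dusp1 from -0.070 to 0.40. With the pan-leukocyte score in place of Ptprc, Egr2 was at 0.035. The difference of Egr3, 0.16 as reported, was 0.46 with a pseudocount of 0.1, 0.096 without GSK343 replicates 3 and 5, and 0.11 to 0.20 with single tumours left out. The causes were not tested. The depth of the libraries is unknown, so the counting error of low genes such as Egr3 cannot be given.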
